A study of Mus musculus with 18 samples.

Results

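The Ifi200 cluster is a family of interferon-inducible genes that lie side by side on mouse chromosome 1, and 6 of its genes are described here in lung: Ifi204, Ifi202b, Mndal, Ifi205, Ifi203 and Aim2. Their probe sets were taken from the array table by the platform annotation, keeping those that name 1 of these genes and no other. That gave 6 of 45037 probe sets, for 5 of the 6 genes, among 18193 genes with a probe set of their own. Ifi204, Ifi202b, Ifi203 and Aim2 had 1 probe set each, Mndal had 2, and Ifi205 had none of its own. Of these 6 probe sets, 5 passed the filter on dim signals and were tested, and that of Aim2 did not pass. The cluster was chosen by measured differences in level between strains, so the strain levels below are a description and carry no test, and only the responses to irradiation were tested.

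The series measured lung RNA on 18 single-colour arrays in 6 groups of 3, from the inbred strains A/J, C57BL/6J (the labels write C57BL6/J) and C3H/HeJ, each untreated or irradiated. Untreated mice of all strains were 15 to 26 weeks old. Irradiated mice were exposed at 8 weeks of age, when a caesium source gave 18 Gy to the thorax while lead shielded the other parts of the body, and the right lung was taken when they became moribund. C3H/HeJ mice were then 20 to 22 weeks old (12 to 14 weeks after exposure), C57BL/6J mice 28 to 30 weeks (20 to 22 after exposure) and A/J mice 30 to 32 weeks (22 to 24 after exposure). No transgene or deletion is named for any group. Irradiation, moribund state and time since exposure go together in each strain and cannot be told apart, and age goes with them in A/J and C57BL/6J. The irradiated samples of a strain are separate animals by the labels. For the controls the labels do not say this, so the p-values may there measure technical spread.

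Genes of the Ifi200 family (also called PYHIN genes) are switched on by interferons, through factors that bind short promoter elements known as ISRE and GAS. Their proteins carry HIN domains, which bind DNA, and most also carry a pyrin domain, which recruits partner proteins. Aim2 senses DNA in the cytosol and assembles an inflammasome with the adaptor Asc (gene Pycard) and caspase 1. The p204 protein of Ifi204 has been tied to DNA sensing through STING and to macrophage differentiation, whereas the p202 protein of Ifi202b lacks a pyrin domain and is known as an inhibitor of Aim2 and as a lupus candidate. Mndal, Ifi203 and Ifi205 encode nuclear family members that are less well described. In lung, macrophages are a known site of expression of the family.

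In the RefSeq annotation of GRCm38.p6 the cluster begins with Aim2, and Ifi204, Mndal, Ifi203, Ifi202b and Ifi205 follow in that order, with Ifi211 between Mndal and Ifi203 and other family genes between Aim2 and Ifi204. RefSeq promoter windows of the same build matched 5 of the 6 genes, with 7 windows in all. Windows of 4 genes are shown, because the letters of an ISRE core occur in those of Mndal, Ifi203 and Ifi205 and not in that of Ifi202b. Each runs 5' to 3' over the 250 bases before an annotated start, on the minus strand, and capitals mark matches to the letters of an ISRE core (GAAA, any 2 bases and GAAA again) or of a GAS element (TTCNNNGAA), searched on both strands. The windows lie at chr1:173880188-173880437 for Mndal, chr1:173942493-173942742 for Ifi203, chr1:174031756-174032005 for Ifi205 and chr1:173982845-173983094 for Ifi202b.
Mndal: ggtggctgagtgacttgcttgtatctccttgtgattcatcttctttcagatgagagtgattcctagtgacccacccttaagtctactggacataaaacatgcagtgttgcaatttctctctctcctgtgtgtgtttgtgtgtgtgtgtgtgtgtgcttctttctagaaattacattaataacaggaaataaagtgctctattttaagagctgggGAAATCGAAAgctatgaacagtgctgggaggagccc
Ifi203: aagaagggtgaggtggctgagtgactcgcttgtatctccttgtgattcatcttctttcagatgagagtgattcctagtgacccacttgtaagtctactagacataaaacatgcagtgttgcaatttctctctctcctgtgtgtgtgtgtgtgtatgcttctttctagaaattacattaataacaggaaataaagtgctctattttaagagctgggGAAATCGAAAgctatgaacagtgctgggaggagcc
Ifi205: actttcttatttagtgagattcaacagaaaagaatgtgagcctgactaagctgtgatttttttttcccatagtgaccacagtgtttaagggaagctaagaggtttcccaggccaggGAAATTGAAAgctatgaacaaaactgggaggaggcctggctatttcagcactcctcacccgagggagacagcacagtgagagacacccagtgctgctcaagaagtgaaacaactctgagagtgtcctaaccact
Ifi202b: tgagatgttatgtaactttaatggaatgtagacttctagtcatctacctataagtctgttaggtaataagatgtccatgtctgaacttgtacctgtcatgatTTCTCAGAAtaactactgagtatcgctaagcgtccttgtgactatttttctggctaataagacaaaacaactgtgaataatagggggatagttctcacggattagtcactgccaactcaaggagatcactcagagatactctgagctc

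The Mndal and Ifi203 windows were near copies: 233 of their 239 aligned bases were identical (97.5%), and both held GAAATCGAAA, its last base 27 bases before the Mndal start and 26 bases before that of Ifi203. The Ifi205 window held GAAATTGAAA with its last base 125 bases before the start, and in all 3 windows the core ran on into the shared letters GAAAgctatgaaca. Ifi202b held no ISRE core letters in its window and 1 GAS match, TTCTCAGAA. A second Mndal start had TTTCTCTTTC, the core on the other strand, with its last base 45 bases upstream, while a second Ifi203 start and Aim2 had neither motif. Of the 5 genes with a window, 3 thus held an ISRE core, against 3.46% of 27025 genes over all such windows, and GAS letters occurred in 7.02% of 32851 windows. The sequence is that of the reference strain, C57BL/6J, and a match is a description of letters, not of a bound site. Sequences of A/J and C3H/HeJ, the strains in which Ifi202b rose, were not read, and a link to the responses was not tested.

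Some arrays stood apart. The trimmed mean signal ranged from 46.27 to 175.6 between arrays, so the values below are log2(signal + 7) after quantile normalization, with the deposited signal beside them where it helps. Genes of lung epithelium and vessel (Sftpc, Sftpb, Sftpa1, Ager, Cdh5 and Scgb1a1) were high in all arrays, with a mean of 11.75 to 12.14 per array. The actin 5' to 3' signal ratio was 0.413 to 0.551 in irradiated A/J and 0.677 to 0.766 in the other 15 arrays. Krt4, a keratin of squamous lining, was at 11.52 and 11.75 in C57BL/6J control 1 and 3 and at 10.91 in A/J irradiated 3, against 3.06 to 6.13 elsewhere. The mean of 5 skeletal muscle genes was also high in these arrays, at 8.70, 8.52 and 8.72 in turn. It was 6.45 in C57BL/6J irradiated 3 and 6.80 in C3H/HeJ irradiated 1, against 4.62 to 5.39 in the other arrays. Those 2 arrays stayed in when the 3 keratin-high arrays were left out. C3H/HeJ irradiated 3 went against its strain label. This was scored over 32 other probe sets that lie over 3 log2 apart between untreated A/J (scored 0) and C3H/HeJ (scored 1). C3H/HeJ irradiated 3 scored 0.49, against 0.96 in the other 2 irradiated C3H/HeJ arrays. The C57BL/6J arrays also lay near the A/J end, at 0.08 to 0.16, so a score of 0.49 does not point to A/J in particular.

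Ifi202b was low in C57BL/6J, whose lung gave almost no signal, while A/J and C3H/HeJ lung gave a clear one. Its normalized values in untreated C57BL/6J were 2.88, 2.99 and 2.96, from deposited signals of 0.3, 1 and 0.8, which placed the probe set at percentiles 1.42 to 5.98 of its array. Untreated A/J had 6.58, 6.04 and 6.78, with signals of 93.1, 59.2 and 96.9. Untreated C3H/HeJ had 5.74, 5.48 and 5.05, with signals of 25.8, 34.3 and 22.2. The 3 strains did not overlap, in the order A/J (mean 6.46 ± 0.38, SD, n = 3), C3H/HeJ (5.42 ± 0.35) and C57BL/6J (2.95 ± 0.06). The C57BL/6J values are at the foot of the scale, where the added 7 sets the level, so the C57BL/6J minus A/J difference of -3.52 log2 depends on that constant and ran from -5.60 to -1.81 over the alternatives.

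Mndal had the opposite layout, with A/J as the low strain. Its probe set 1426906_at read 2.87, 2.83 and 3.39 in untreated A/J (signals of 0.3, 0.1 and 3), but 8.11, 8.40 and 8.21 in C57BL/6J and 7.40, 8.78 and 8.26 in C3H/HeJ (86.7 to 376.3 in signal over both strains). The other probe set, 1452231_x_at, read 3.82, 4.18 and 3.64 in A/J, 8.68, 9.19 and 8.91 in C57BL/6J and 9.02, 9.14 and 9.02 in C3H/HeJ. Both put A/J below the other strains: C57BL/6J exceeded it by 5.21 and 5.05 log2, and C3H/HeJ by 5.12 and 5.18. These sizes depend on the added constant, since A/J lay near the foot of the scale. Over the alternatives those of 1426906_at ran from 3.30 to 7.31 and from 3.22 to 7.21, and those of 1452231_x_at from 3.68 to 5.81 and from 3.81 to 5.95. C57BL/6J and C3H/HeJ overlapped in both probe sets and differed by 0.09 and -0.13, which is within the spread of their arrays.

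Ifi204 was high in A/J alone. The values were 6.55, 6.35 and 6.07 in untreated A/J (signals of 91.1, 75.2 and 57.2), 4.47, 3.995 and 4.04 in C57BL/6J and 4.26, 3.72 and 3.74 in C3H/HeJ. C57BL/6J minus A/J was -2.15 log2 and C3H/HeJ minus A/J was -2.41, both without overlap, while C57BL/6J and C3H/HeJ overlapped and lay 0.26 apart. Signals in C57BL/6J and C3H/HeJ were only 5.7 to 11.5, below the median of their arrays and near the added 7. The sizes of the differences from A/J thus depend on that constant. Over the alternatives they ran from -2.64 to -1.29 for C57BL/6J and from -3.06 to -1.40 for C3H/HeJ.

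Ifi203, read by 1442828_at, was dim in all groups. It had 5.12, 4.81 and 3.55 in untreated A/J, 5.29, 5.55 and 5.34 in C57BL/6J and 5.36, 5.07 and 4.47 in C3H/HeJ. C57BL/6J lay above A/J with no overlap (0.90 log2), C3H/HeJ overlapped both, and 1 dim A/J array (signal 4.1) gave that group an SD of 0.83. Aim2, the inflammasome sensor, stayed between 3.03 and 4.08 in all 18 arrays, with signals of 1.8 to 10.6, and exceeded the overall median of 4.98 in 0 arrays. No strain order was read from it.

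Over all tested probe sets, 31.5% did not overlap between untreated C57BL/6J and A/J, 28.1% between C57BL/6J and C3H/HeJ and 25% between C3H/HeJ and A/J. For the 5 tested member probe sets these counts were 5, 1 and 4. Group means over 3 log2 apart were rare in general, at 0.272%, 0.229% and 0.132% of probe sets, and occurred for 3, 0 and 2 of the member probe sets. The second counts depend on the constant 7, as the sizes above do. Since strain variation chose the cluster, these counts describe it and support nothing. In bulk lung, fewer expressing cells and less RNA per cell cannot be told apart. Nor can a strain's RNA level be told apart from how well its sequence binds probes, whose sequences were not used here.

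**Figure D1:**
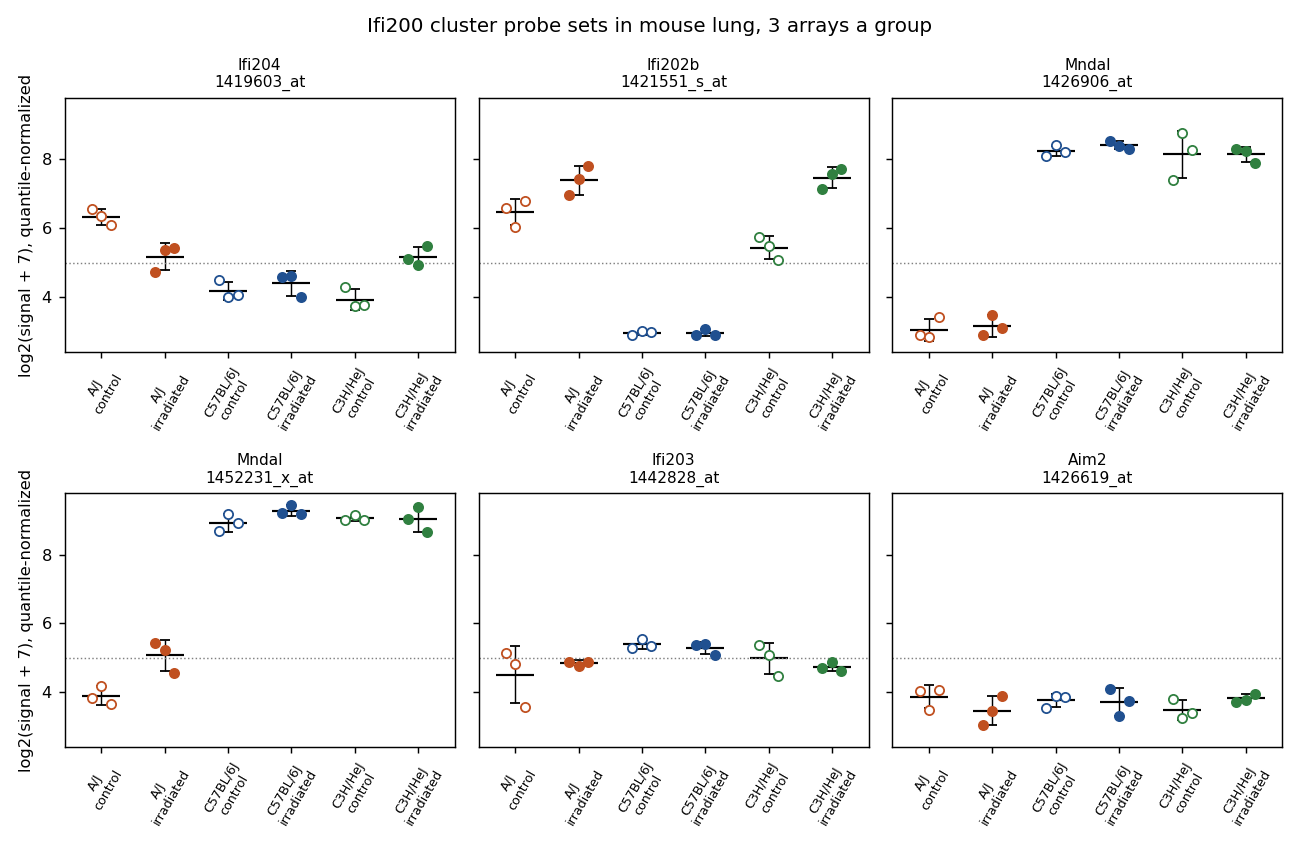
Normalized log2(signal + 7) of the 6 Ifi200 cluster probe sets that name 1 gene, by group of 3 arrays. Open points are untreated and filled points irradiated arrays, bars give the mean and SD, and the dotted line is the overall median of 4.98. Ifi202b lies near the foot of the scale in C57BL/6J and both Mndal probe sets are lowest in A/J.

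In irradiated A/J lung, Ifi204 fell and Ifi202b rose, so that 2 DNA-binding family members moved in opposite directions on the same arrays. Ifi204, the p204 gene, went from 6.55, 6.35 and 6.07 in controls to 4.70, 5.35 and 5.42 in irradiated arrays. The groups did not overlap, and the fall was 1.17 ± 0.23 (SE, 95% interval -1.66 to -0.67, limma adjusted p = 0.00185). Ifi202b, the p202 gene, went from 6.58, 6.04 and 6.78 to 6.95, 7.42 and 7.80. All 3 irradiated arrays exceeded all 3 controls, a rise of 0.93 ± 0.23 or 1.90-fold on this scale (interval 0.44 to 1.42, adjusted p = 0.00778). Without A/J irradiated 3 and the 2 keratin-high C57BL/6J controls, the Ifi202b rise was 0.72 ± 0.25 and lost its call (adjusted p = 0.0595, against 0.000638 to 0.0595 over all alternatives).

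The 2 probe sets of Mndal did not give the same answer in A/J. In 1452231_x_at the 3 controls read 3.82, 4.18 and 3.64 and the irradiated arrays 5.43, 5.21 and 4.55. That rise of 1.18 ± 0.22 (2.27-fold, interval 0.71 to 1.66, adjusted p = 0.00119) had no overlap, yet irradiated C3H/HeJ still exceeded irradiated A/J by 3.97 log2. In 1426906_at the irradiated arrays read 2.87, 3.47 and 3.08 and overlapped the controls, with a difference of 0.11 ± 0.27 (interval -0.46 to 0.67, adjusted p = 0.806). With A/J at the foot of the scale in this probe set, a response was not detectable there. An _x_at suffix marks a probe set some of whose probes can bind other sequences, and the difference between the 2 probe sets was not tested. Ifi203 differed by 0.34 ± 0.30 (interval -0.29 to 0.97, adjusted p = 0.439), and Aim2, not tested, by -0.41 with SDs of 0.33 and 0.42.

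Thus A/J had 3 calls among the 5 tested member probe sets (2 higher and 1 lower), where 25.2% of all probe sets were called (11.6% higher and 13.6% lower). Their median change was 0.34, against 0.02 over all. The split of calls over all probe sets depended on scaling, with 2977 higher and 3503 lower here, 3788 and 816 without scaling and 6382 and 2485 with median centring, which moved the median of all probe sets to 0.46 and 0.23. The 3 member calls held under both, and the fall of Ifi204 was then -0.91 and -1.14. The low actin 5' to 3' ratio of irradiated A/J moved with these changes, and its part in them was not tested.

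In irradiated C3H/HeJ lung, Ifi202b and Ifi204 both rose, and the rise of Ifi202b was the greatest response of any tested member probe set. Ifi202b went from 5.74, 5.48 and 5.05 to 7.12, 7.56 and 7.71, with signals of 22.2 to 34.3 in controls and 155.9 to 322.3 after irradiation. All irradiated arrays stood over 1 log2 above the highest control, and the change was 2.04 ± 0.23 or 4.12-fold (interval 1.55 to 2.53, adjusted p = 3.26e-05). Ifi204 went from 4.26, 3.72 and 3.74 to 5.11, 4.93 and 5.46, again with no overlap, a rise of 1.25 ± 0.23 or 2.39-fold (interval 0.76 to 1.75, adjusted p = 0.0016). Its control signals were only 5.7 to 8.4, near the added 7, so the size of this rise depends on that constant. Over the alternatives it ran from 0.61 to 1.75 and kept its call.

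Without C3H/HeJ irradiated 3, the array of uncertain strain, Ifi202b rose by 1.92 ± 0.26 (adjusted p = 0.000305) and Ifi204 by 1.11 ± 0.26 (adjusted p = 0.0108). Mndal was high before and after irradiation. Its 1426906_at read 8.31, 8.24 and 7.89 in irradiated arrays and its 1452231_x_at 9.03, 9.40 and 8.65, inside or near the range of the controls. Their intervals of change were -0.57 to 0.57 and -0.51 to 0.44 (adjusted p = 0.999 and 0.942). Ifi203 differed by -0.25 ± 0.30 (adjusted p = 0.612), and Aim2, not tested, by 0.34 with SDs of 0.29 and 0.12. Of the 5 tested member probe sets 2 were called, both higher, where 9.65% of all probe sets were called higher and 8.73% lower (18.4% in all), and the members' median change was near 0. Without scaling, 5562 probe sets were called higher and 143 lower, and with median centring 4557 and 939, against 2484 and 2248 here. Those settings moved the median of all probe sets to 0.56 and 0.18, and Ifi202b and Ifi204 kept their calls.

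In irradiated C57BL/6J lung, none of the 5 tested member probe sets was called, where 2.92% of all probe sets were (1.73% higher and 1.2% lower). Their unadjusted limma p-values ran from 0.136 to 0.988. Ifi202b stayed at the foot of the scale, with 2.89, 3.06 and 2.88 after irradiation (signals of 0.4, 1.3 and 0.3), so that a response of this gene was not detectable in this strain. Ifi204 read 4.57, 4.60 and 3.97, overlapping its controls, with an interval of -0.28 to 0.71 for the change (adjusted p = 0.722). Mndal was already high and read 8.54, 8.40 and 8.29 in 1426906_at and 9.20, 9.45 and 9.17 in 1452231_x_at, with intervals of -0.40 to 0.73 and -0.12 to 0.83 (adjusted p = 0.819 and 0.474). Ifi203 differed by -0.11 ± 0.30 (adjusted p = 0.902) and Aim2, not tested, by -0.06.

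**Figure D2:**
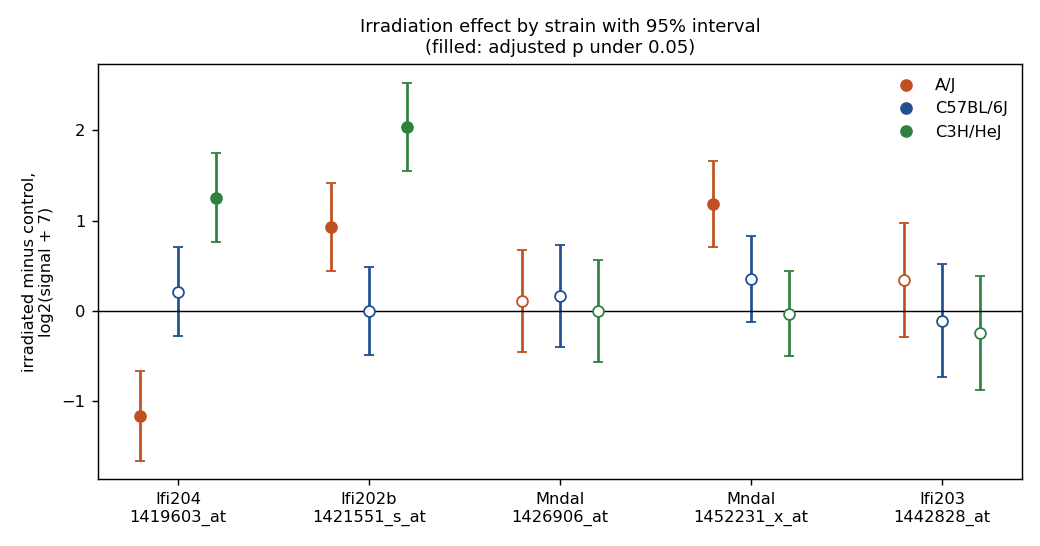
Irradiated minus control, on the log2(signal + 7) scale, for the 5 tested Ifi200 cluster probe sets in each strain. Bars are 95% intervals from limma and filled points have an adjusted p under 0.05. Ifi204 lies at -1.17 in A/J and at 1.25 in C3H/HeJ.

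The response of Ifi204 differed between strains by a test of the difference itself. Its change in C3H/HeJ exceeded that in A/J by 2.42 ± 0.33 (interval 1.72 to 3.12, adjusted p = 0.00331), with a rise in 1 strain and a fall in the other. Its change in C57BL/6J exceeded that in A/J by 1.38 ± 0.33 (adjusted p = 0.0176), while its change in C57BL/6J minus that in C3H/HeJ was -1.04 ± 0.33 without a call (interval -1.74 to -0.34, adjusted p = 0.149). The C3H/HeJ against A/J difference held under every alternative, at 1.40 to 3.07. The C57BL/6J against A/J difference lost its call without scaling (1.17, adjusted p = 0.246), without the 3 keratin-high arrays (1.68, adjusted p = 0.0555) and without A/J control 1 (1.27, adjusted p = 0.0507).

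For Ifi202b no difference with the C57BL/6J response can be read. All 6 C57BL/6J arrays lay at the foot of the scale and the probe set passed the filter through the other strains, so the fitted -2.04 ± 0.33 against C3H/HeJ and -0.93 ± 0.33 against A/J restate the rises in those strains. The change in C3H/HeJ exceeded that in A/J by 1.11 ± 0.33, without a call (interval 0.42 to 1.81, adjusted p = 0.0929). For Mndal 1452231_x_at the change in C3H/HeJ minus that in A/J was -1.22 ± 0.32 and missed the threshold (adjusted p = 0.0644), although it passed in some alternatives, at -1.47 without A/J irradiated 3 (adjusted p = 0.0211). No other difference of a member was called.

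Of the 5 tested member probe sets, 1 was called in each of these differences. Over all probe sets the shares were 8.29% for C57BL/6J against A/J (5.78% higher and 2.51% lower), 0.928% for C57BL/6J against C3H/HeJ (0.4% and 0.528%) and 1.37% for C3H/HeJ against A/J (0.979% and 0.392%). The member call was Ifi204, higher, in the first and last of these, and the first rests largely on the A/J fall. In the second it was Ifi202b, lower, which rests on the C3H/HeJ rise alone as said above. Calls of the C57BL/6J and A/J difference were 1487 higher and 647 lower, but 195 and 353 without scaling and 1131 and 1213 with median centring. For C57BL/6J against C3H/HeJ they were 103 and 136, but 18 and 301, and 40 and 197. For C3H/HeJ against A/J they were 252 and 101, and 145 and 23 without scaling. These differences share the arrays of a strain with each other and with the effects above.

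Among irradiated mice, A/J and C3H/HeJ overlapped in Ifi204 and Ifi202b, whose controls had not overlapped. Irradiated means of Ifi204 were 5.16 ± 0.39 (SD, n = 3) in A/J and 5.17 ± 0.27 in C3H/HeJ, against 6.32 ± 0.24 and 3.91 ± 0.31 in controls. Those of Ifi202b were 7.39 ± 0.43 and 7.47 ± 0.31, against 6.46 and 5.42 in controls. C57BL/6J stayed apart from both in each gene. Irradiated C57BL/6J minus irradiated A/J was -0.78 log2 for Ifi204 and -4.45 for Ifi202b, and minus irradiated C3H/HeJ it was -0.78 and -4.52. Those of Ifi202b depend on the added constant, and ran from -6.62 to -2.57 and from -6.70 to -2.63 over the alternatives. Non-overlap of the 5 member probe sets among irradiated groups was 5 for C57BL/6J against A/J, 3 for C57BL/6J against C3H/HeJ and 2 for C3H/HeJ against A/J, beside 37.2%, 34.6% and 30.3% of all probe sets. Irradiated means lay over 3 log2 apart for 3, 1 and 2 of them, beside 0.233%, 0.214% and 0.0932% of all. These comparisons between strains are descriptions, as above.

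Another 6 probe sets name a member together with other genes, so their values belong to no single gene. Their changes were not followed under the alternatives. Ifi205 is named by 2 of them, one shared with Ifi211 and one shared by 4 genes. The set of Ifi211 and Ifi205 rose in all 3 strains, by 0.93 ± 0.16 in A/J (adjusted p = 0.00068), 0.98 ± 0.16 in C57BL/6J (adjusted p = 0.00488) and 1.53 ± 0.16 in C3H/HeJ (adjusted p = 2.15e-05). Its means were 6.60, 8.32 and 7.28 for controls (A/J, C57BL/6J and C3H/HeJ in turn) and 7.54, 9.29 and 8.81 after irradiation. A change was thus called here in C57BL/6J, where none of the single-gene member sets was. However, C57BL/6J control 1 and 3, the keratin-high arrays, were the lower controls at 8.075 and 8.18. Control 2 read 8.69, against 9.22, 9.38 and 9.28 after irradiation, and whether the call holds without the keratin-high arrays was not tested. No difference of this response between strains was called (adjusted p = 0.187 to 0.94). The set shared by Mndal, Ifi211, Ifi205 and Ifi204 was called in A/J (0.78 ± 0.16, adjusted p = 0.00235) and C3H/HeJ (0.61 ± 0.16, adjusted p = 0.0165) but not in C57BL/6J (0.57 ± 0.16, adjusted p = 0.0754).

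The set shared by Ifi202b and the locus LOC100044068 gave the layout of Ifi202b again. Its means were 7.33, 3.39 and 5.95 for controls (A/J, C57BL/6J and C3H/HeJ in turn) and 8.24, 3.04 and 8.29 after irradiation. It rose by 0.91 ± 0.30 in A/J (adjusted p = 0.0355) and 2.34 ± 0.30 in C3H/HeJ (adjusted p = 9.34e-05), and differed by -0.34 ± 0.30 in C57BL/6J (adjusted p = 0.635). Its C57BL/6J signals were only 0.3 to 5.2, so a response was not detectable there either.

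The 3 sets shared by Ifi203 and its pseudogene Ifi203-ps, with other loci, had unlike strain orders. In 1425008_a_at A/J controls were highest, with a mean of 6.36 against 4.23 in C57BL/6J and 4.31 in C3H/HeJ. In 1448775_at A/J was lowest, at 6.34 against 7.68 and 8.22. In 1451567_a_at C57BL/6J was lowest, at 5.73 against 7.25 in A/J and 7.31 in C3H/HeJ. After irradiation 2 of them fell in A/J, where 13.6% of all probe sets were called lower. These were 1425008_a_at, by 0.94 ± 0.33 (adjusted p = 0.0477), and 1451567_a_at, by 1.08 ± 0.18 (adjusted p = 0.00041). None of the 3 was called in C57BL/6J or C3H/HeJ (adjusted p = 0.142 to 0.972), where 2.92% and 18.4% of all probe sets were. The response of 1451567_a_at in A/J differed from that in C57BL/6J (1.34 ± 0.25, adjusted p = 0.00449) and C3H/HeJ (1.07 ± 0.25, adjusted p = 0.0479).

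**Figure D3:**
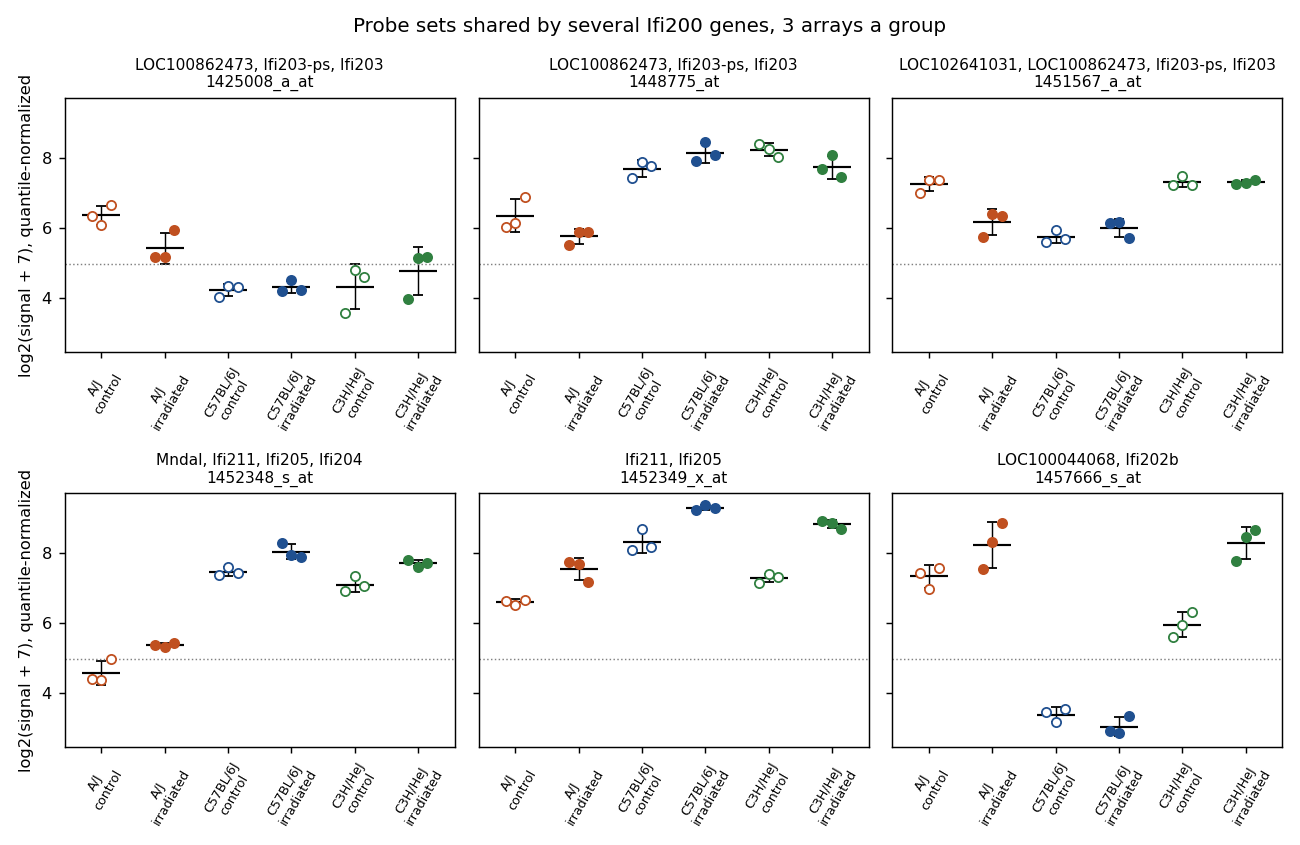
Normalized log2(signal + 7) of the 6 probe sets that name a member of the Ifi200 cluster together with other genes, by group of 3 arrays. Open points are untreated and filled points irradiated arrays, bars give the mean and SD, and the dotted line is the overall median of 4.98. The set of Ifi211 and Ifi205 rose in all 3 strains, and that of LOC100044068 and Ifi202b lies low in C57BL/6J.

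Of 7 other genes of the cluster, 3 were measured by probe sets of their own: Ifi207, Ifi209 and Ifi213. In C3H/HeJ 2 of them rose, Ifi207 by 1.55 ± 0.29 (adjusted p = 0.0016) and Ifi209 by 1.00 ± 0.27 (adjusted p = 0.0166). Without C3H/HeJ irradiated 3, Ifi207 rose by 1.36 (adjusted p = 0.0108) and Ifi209 lost its call at 0.81 (adjusted p = 0.082), as it did without C3H/HeJ control 1 (0.78, adjusted p = 0.0841). None of the 3 was called in the other strains, where Ifi207 differed by 0.48 and 0.99 (adjusted p = 0.245 and 0.079). Their median change was 1.00 in C3H/HeJ, 0.63 in C57BL/6J and -0.46 in A/J.

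The lists of related genes are read beside the shares of all probe sets called: 11.6% higher and 13.6% lower in A/J, 1.73% and 1.2% for C57BL/6J, and 9.65% and 8.73% for C3H/HeJ. Of 24 measured interferon-stimulated genes, 5 rose and 2 fell in A/J, 7 rose in C57BL/6J and 9 in C3H/HeJ, with median changes of 0.25, 0.48 and 0.59. In A/J that is 20.8% higher and 8.33% lower, or 7 calls where 25.2% of all probe sets were called, and so near the background. In C57BL/6J and C3H/HeJ it is 29.2% and 37.5% higher. Mx1, an antiviral GTPase, rose in all 3 strains, by 0.93, 1.23 and 1.56 (adjusted p = 0.00682, 0.00797 and 0.000237). The C57BL/6J call of Mx1 was lost without C57BL/6J irradiated 1 (1.09, adjusted p = 0.0508). Ifit1, which binds viral RNA, rose by 1.27 in C57BL/6J and 1.11 in C3H/HeJ. The T-cell chemokine Cxcl9 rose in the same strains by 2.18 and 1.99. C57BL/6J, with no member called, thus had called changes in this list, with Oasl2 at 1.21 ± 0.22 (adjusted p = 0.00718) beside the others. Cxcl10 rose by 1.81 in C3H/HeJ, a call lost in 1 of 14 alternatives (adjusted p = 0.0555). In A/J Oas2 and Oas1a, sensors of double-stranded RNA, rose by 1.16 and 0.81, the latter without a call when A/J control 2 was left out (0.65, adjusted p = 0.0609), and Trim30a fell by 1.14 ± 0.24 (adjusted p = 0.00276). The Trim30a call was lost in 1 of 14 alternatives (adjusted p = 0.173).

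Of 14 genes of interferon signalling, 2 rose and 1 fell in A/J, 2 rose in C57BL/6J, and 4 rose and 1 fell in C3H/HeJ, with medians of 0.15, 0.20 and 0.23. The shares higher were 14.3%, 14.3% and 28.6%, and in A/J 3 calls among 14 genes is no more than the background. Irf7, a main driver of interferon genes, rose in C57BL/6J (1.17 ± 0.26, adjusted p = 0.023) and C3H/HeJ (0.84 ± 0.26, adjusted p = 0.0321). Leaving out single arrays ended the Irf7 call in 4 of 6 cases in C57BL/6J (adjusted p = 0.0648 to 0.108) and in 4 of 6 in C3H/HeJ (adjusted p = 0.0575 to 0.115). Irf8, a factor of myeloid cells, rose in all 3, by 0.43, 0.45 and 0.73, of which the C57BL/6J call was lost in 5 of 6 omissions (adjusted p = 0.0699 to 0.175). The feedback inhibitor Socs3 rose by 0.77 in A/J and 1.87 in C3H/HeJ, and the kinase Jak2 by 0.49 in C3H/HeJ, a call lost without C3H/HeJ control 1 (0.36, adjusted p = 0.0615). Irf1 fell by 0.65 in A/J (adjusted p = 0.00201), a call that was lost without scaling (-0.05, adjusted p = 0.92) and with median centring (-0.28, adjusted p = 0.209). Without the 3 keratin-high arrays, which leaves 1 C57BL/6J control, all 7 C57BL/6J calls named in these lists and for Zbp1 below were lost (adjusted p = 0.201 to 0.588).

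Partners of the family act in inflammasomes and in DNA sensing. Of 10 measured inflammasome genes, 1 rose in A/J, 0 were called in C57BL/6J and 4 rose in C3H/HeJ, with medians of 0.15, 0.20 and 0.57. Against all probe sets, the 10% called higher in A/J is near the share of 11.6% and the 40% in C3H/HeJ stands beside 9.65%. These were Pycard, the Asc gene, in A/J (0.46 ± 0.16, adjusted p = 0.0487), and Il1b, Il1rn, Il18bp and Casp4 in C3H/HeJ, by 1.77, 1.64, 1.11 and 0.76. The Pycard call was lost in 4 of 6 single-array omissions (adjusted p = 0.096 to 0.171). Of 11 measured genes of cytosolic DNA sensing, 6 rose in C3H/HeJ, 3 in A/J and 1 in C57BL/6J, with medians of 0.55, 0.39 and -0.06. These are 54.5%, 27.3% and 9.09% of the list, where 9.65%, 11.6% and 1.73% of all probe sets were called higher. Sting1, the adaptor through which p204 is thought to signal, rose by 1.05 ± 0.30 in A/J (adjusted p = 0.0171) and 1.37 ± 0.30 in C3H/HeJ (adjusted p = 0.00492), although the A/J call was lost in 3 of 6 single-array omissions (adjusted p = 0.054 to 0.0802). Rnaseh2b, a subunit of RNase H2, rose in the same strains by 0.82 and 0.73. The helicase Ddx41 was called higher in A/J by 0.45, and lost that call in 5 of 6 omissions (adjusted p = 0.0607 to 0.164). Zbp1, a sensor of Z-form nucleic acid, rose in C57BL/6J by 1.28 ± 0.22 (adjusted p = 0.0059) and in C3H/HeJ by 0.68 ± 0.22 (adjusted p = 0.0425), and the kinase Ikbke in C3H/HeJ by 1.19. The C3H/HeJ call of Zbp1 was lost in 6 of 6 omissions (adjusted p = 0.057 to 0.154).

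**Figure D4:**
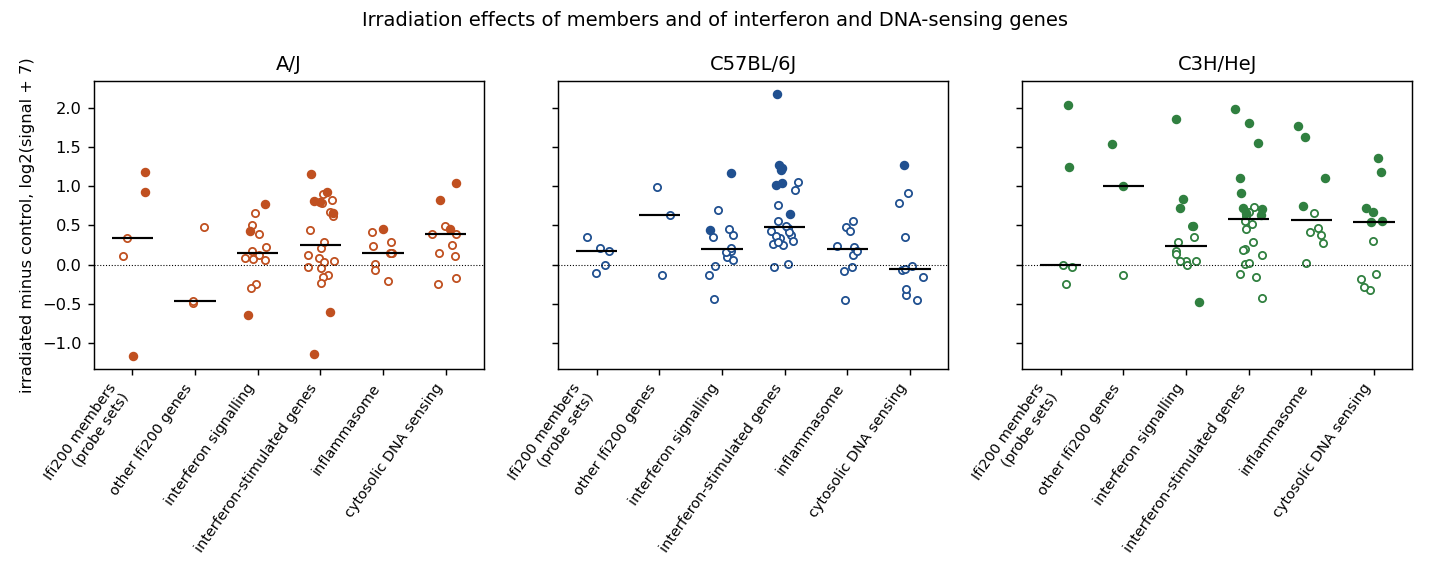
Irradiated minus control, on the log2(signal + 7) scale, for the 5 tested member probe sets and for measured genes of 5 related lists, by strain. Each point is a probe set or gene, filled where its adjusted p is under 0.05, and bars are medians. In C57BL/6J no member is filled, while 7 interferon-stimulated genes are.

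Markers of blood cells moved with irradiation as well. Of 7 macrophage and monocyte markers, 5 rose in C3H/HeJ, 4 in A/J and 0 in C57BL/6J, where 9.65%, 11.6% and 1.73% of all probe sets were called higher. A count of 0 in C57BL/6J is near that background. Their mean level per array went from 8.72 to 8.82 in A/J controls to 8.69 to 9.66 after irradiation, from 8.39 to 8.48 to 8.21 to 9.18 in C57BL/6J, and from 8.52 to 8.56 to 9.41 to 9.79 in C3H/HeJ. All 3 measured B cell markers fell in A/J, from a mean of 7.90 to 8.21 to one of 6.28 to 6.92, and none was called in the other strains. Of 5 dendritic cell markers 2 rose and 1 fell in A/J and 3 rose in C3H/HeJ, and of 5 T and NK cell markers 2 fell in A/J. Of 4 neutrophil markers 2 fell in A/J and 1 rose in C3H/HeJ. The 7 macrophage and monocyte markers measured were Cd68, Lyz2, Csf1r, Adgre1, Mrc1, Marco and Ccr2. The part of these shifts in the changes of Ifi202b, Ifi204 and Mndal was not tested.

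Over the 18 arrays, the genes whose level ran most like Ifi202b were Ifi44l (Pearson r = 0.958), Hal (r = 0.952) and Slc15a2 (r = 0.934). Ifi44l, itself an interferon-induced gene, had means of 5.14, 3.44 and 4.99 for controls (A/J, C57BL/6J and C3H/HeJ in turn) and 5.93, 3.03 and 6.20 after irradiation. Hal, the histidine ammonia-lyase gene, likewise lay low in C57BL/6J, at 3.15 and 3.07. The genes most like Mndal (1452231_x_at) were Lefty1 (r = 0.961), Rps4l (r = 0.955) and Zfp52 (r = 0.951). Of these Lefty1 is also on chromosome 1 and was lowest in A/J, at 3.14 in controls against 6.22 and 5.75 in the other strains. Ifi204 had Nupr1 (r = 0.846), Dpp7 (r = 0.826) and Mb21d2 (r = 0.806), and Ifi203 had Fam178b (r = 0.780), Rbm20 (r = 0.766) and Il1f9 (r = 0.761). These correlations are picked as the highest of many, the arrays of a group share strain and treatment, and no test was made.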

How the data were processed

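Mouse lung RNA was hybridised to 18 arrays, 3 in each of 6 groups, which were assigned from the sample titles. The authors deposited a table of signal intensity on a linear scale, 45101 probe sets by 18 arrays. MAS5 is named in the submitters' processing notes with no version, and background handling and scaling are not given in the sources used here. The 64 control probe sets were left out, leaving 45037. Array brightness differed, so log2(intensity + 7) of the deposited values was quantile-normalized. The constant 7 is the rounded 25th percentile (6.7) of all values, and fold changes on this scale understate those of dim genes. Probe sets above the overall median of 4.98 in at least 3 arrays were tested (25746). No detection calls were used, and the number of arrays limits the precision.

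Gene names came from the platform annotation, which named 1 gene for 34945 probe sets, several for 932 and had no row for 9160. Under R 4.3.3, limma 3.58.1 with lmFit and eBayes fitted 6 group means to all 18 arrays with 12 residual degrees of freedom. The contrasts were irradiated minus control in each strain and the differences of these effects. Two-sided p-values were adjusted by Benjamini-Hochberg over all 25746 probe sets and a threshold of 0.05. Every adjusted p in the text is from these limma fits, and the fit was tested on simulated data. Errors of changes are standard errors and intervals are 95%.

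The members and gene lists were chosen with earlier results of these data known. Every member probe set was described. From each of the 5 pathway lists, up to 4 called genes per strain with the greatest change were named, by the probe set of highest mean, and for likeness the 3 genes with the highest Pearson r per member. Other genes given with values were chosen after their values were seen. Alternatives were no scaling, median centring, constants of 1 and 32, no filter, fits of the compared groups alone, a replicate block, and leaving out each array, the 3 arrays high in squamous keratins or C3H/HeJ irradiated 3.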

Additional observations from a re-analysis of the deposited data

Results flagged for a closer look

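For 2 member results and 6 of related genes, the response to irradiation differed between strains by limma's test of the difference itself, each on the log2(signal + 7) scale with its standard error and adjusted p. The signed change of Ifi204 in C3H/HeJ exceeded that in A/J by 2.42 ± 0.33 (adjusted p = 0.00331), with a rise in C3H/HeJ and a fall in A/J. All 3 irradiated C3H/HeJ arrays lay above their controls and all 3 irradiated A/J arrays below theirs. In C57BL/6J the change of Ifi204 was 0.21 without a call, against -1.17 in A/J, a difference of 1.38 ± 0.33 (adjusted p = 0.0176). Its C57BL/6J signals were only 8.2 to 18.7, so a fall had little room there and the 1.38 largely restates the A/J fall. For Ifi202b the C57BL/6J response minus that of C3H/HeJ was -2.04 ± 0.33, but C57BL/6J signals were 0.3 to 1.3 in all 6 arrays, so this value restates the C3H/HeJ rise and does not show that the responses differ.

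Among related genes, Trim30a fell in A/J and its C57BL/6J response exceeded that by 1.70 ± 0.34 (adjusted p = 0.00717). Rnaseh2b responded less in C57BL/6J than in A/J (-0.98 ± 0.18, adjusted p = 0.00413) and than in C3H/HeJ (-0.89 ± 0.18, adjusted p = 0.0277). Socs3 responded less in C57BL/6J than in C3H/HeJ (-1.51 ± 0.27, adjusted p = 0.0168). Il1b did too (-2.22 ± 0.45, adjusted p = 0.0274), and its C3H/HeJ response exceeded that in A/J by 1.99 ± 0.45 (adjusted p = 0.0417). Unlike those of the members, these differences of related genes were not followed under the alternatives.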

How the results depend on the processing

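No change reversed in direction with a call under any alternative run. Of 1014 values under alternatives, for 66 changes of member probe sets and named genes, 931 stayed on their side of the threshold, 76 lost the call and 7 gained it. Member counts within strains (A/J 3, C3H/HeJ 2 and C57BL/6J 0) were the same when any 1 array was left out. The A/J count became 2 without the 3 keratin-high arrays. For the differences of effects, the member count of 1 for C57BL/6J against A/J became 0 without scaling, 2 with median centring and 0 without the 3 keratin-high arrays, and was 0 to 2 over single arrays left out. For C57BL/6J against C3H/HeJ it became 0 without the 3 arrays and was 1 over single arrays. For C3H/HeJ against A/J it became 2 with the constant 1 and 2 without the 3 arrays, and was 1 to 3 over single arrays.

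Counts over all probe sets moved more, and the cause was not tested. Some of the settings also have fewer arrays or fewer degrees of freedom. The 753 calls in C57BL/6J became 311 without scaling, 407 with median centring, 347 without the filter, 115 with only the compared groups, 326 with the replicate block and 13 without the 3 arrays, which leaves 1 control assumed to vary like the others. Over single arrays left out they were 244 (without control 1) to 920. In A/J and C3H/HeJ the counts over single arrays were 4675 to 6003 and 3315 to 3884. The 2134 calls of C57BL/6J against A/J became 548 without scaling, 1346 without the filter, 1380 with the block and 633 without the 3 arrays, and 1338 (without A/J control 2) to 2268. The 239 of C57BL/6J against C3H/HeJ became 474 with the constant 32, 101 without the filter, 97 with the block and 24 without the 3 arrays, and 102 (without C57BL/6J control 1) to 461 (without C57BL/6J irradiated 1). The 353 of C3H/HeJ against A/J became 168 without scaling, 586 with the constant 32, 107 without the filter, 182 with only the compared groups and 74 with the block, and 68 (without A/J control 2) to 627 (without C3H/HeJ irradiated 3).

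Replicate numbers do not pair the samples: correlations of same-numbered deviations were -0.048 to 0.024 for C3H/HeJ, -0.085 to 0.017 for A/J and -0.086 to 0.042 for C57BL/6J. With the replicate block no call of a member probe set changed, and the A/J fall of Ifi204 had an adjusted p of 0.00777. Signals near the foot of the scale (Ifi202b in C57BL/6J, Mndal 1426906_at in A/J and Aim2) limit what can be seen there. The dim signals of Ifi204 in C57BL/6J likewise leave little room for a fall.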
